A study of Mus musculus with 147 samples.

Results

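The 10 genes followed here encode 5 groups of enzymes of glycolysis and lactate metabolism, most of them as a widely used form beside a form known from the testis. They were the hexokinases Hk1 and Hk2, the aldolase Aldoa, the glyceraldehyde-3-phosphate dehydrogenases Gapdh and Gapdhs, the phosphoglycerate kinases Pgk1 and Pgk2, and the lactate dehydrogenases Ldha, Ldhb and Ldhc. The members were chosen by name, and all 10 were found among the 31053 genes of the table of unique molecular identifiers (UMIs, tags that count each captured RNA molecule once). Levels are given as CPM, the count of a gene scaled to a fixed total of UMIs per pool, and because each molecule was tagged once at its 3′ end, no correction for transcript length was applied.

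The cells were mouse germ cells and gonadal somatic cells. They came from the offspring of C57BL/6 females mated with males carrying the BVSC reporters, Blimp1-mVenus and Stella-ECFP, which mark primordial germ cells (PGCs). Of 11896 wild-type cells in all, 2248 had no sex label, part of the E10.5 cells among them, and the others were labelled male. The study describes a choice of male embryos by PCR at E10.5 and E11.5. Reporter-positive cells were sorted from E8.5 to E18.5, with reporter-negative cells beside them from E11.5. Testicular cells with the look of germ cells were picked after birth (PND0 to PND35 and adult), and part of those of PND14 and PND30 were sorted by DNA content into 1N, 2N and 4N gates. All cells used were of wild-type animals, and the reporter transgenes were common to the groups collected with their aid. Of 11598 wild-type cells that passed the quality filter, 8335 were germ-like and 1394 somatic-like by clustering without the 10 genes, and 1869, mostly of E6.5 and E7.5 embryos, stayed unnamed. The UMIs of the cells of 1 class, time-point, replicate and gate were summed into a pool, which gave 57 germ-like pools of E8.5 to adult in 31 groups of time-point and gate and 34 somatic-like pools. A germ-like pool of 16 cells of E7.5 was left out. The somatic-like pool of E10.5 replicate 3 (84 cells) was named by its cluster and entered no comparison. Its sum of 9 PGC markers was 2033 CPM, beside 2280 and 2181 in the germ-like pools of E10.5. Its sum of 8 Sertoli markers was 57.7 CPM, so its name as somatic-like is unsure. Each of the 57 held 25 to 446 cells and 11061401 to 187711061 UMIs, and a somatic-like pool 615249 to 24265163 UMIs. The sampling list of the study gives the embryos, several of them pooled, or from birth on the single testis of each replicate separately, so p-values measure the spread between such collections. All libraries drew on the same 96 cell barcodes, and no pair of cells held identical counts.

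Glycolysis splits glucose into pyruvate, and lactate dehydrogenase turns pyruvate and lactate into each other. Hexokinase traps glucose in the cell, aldolase splits the 6-carbon sugar, and the dehydrogenase and kinase steps of GAPDH and PGK yield NADH and ATP. In the testis, Sertoli cells are known to supply lactate to meiotic germ cells, and sperm carry their own forms of several enzymes. Pgk1 lies on the X chromosome, which is silenced in meiotic cells of the male, while Pgk2 is an autosomal copy of it that arose through an RNA intermediate.

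The gene models followed this history (GENCODE M21, GRCm38/mm10). Pgk1 spanned chrX:106187100-106203699 on the plus strand in 11 exons, whereas Pgk2 spanned chr17:40207015-40208640 on the minus strand in 1 exon. Ldha (chr7:46841475-46855627) and Ldhc (chr7:46861203-46878142) lay on the same strand, with Ldhc starting 5576 bases after the end of Ldha. Ldhb was at chr6:142490249-142507957, Gapdh at chr6:125161715-125166467, Gapdhs at chr7:30729775-30743681, Hk1 at chr10:62268855-62379908, Hk2 at chr6:82725025-82774454 and Aldoa at chr7:126795234-126800751, all of them on the minus strand. Near-identical copies limit some of these counts. Of the 50-base words in the last 500 bases of the coding transcripts, 63.2% of those of Gapdh were also in transcripts of 197 other genes, and 29.2% of those of Ldhb were in Gm5514. The shares were 12.8% for Ldha, 9.22% for Aldoa and 7.32% for Pgk1, whose copies include Pgk1-rs7, and 0 for Pgk2, Ldhc, Gapdhs, Hk1 and Hk2. Aldoa had 2 rows in the table, and the second row held 0 to 0.963 CPM in germ-like pools, so values below are those of the first row.

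The promoters of the PGK pair and of the other 2 testis forms are shown because these genes took opposite courses in the germ cells below. Each line is the 250 bases before the start of transcription in RefSeq (GRCm38.p6), read 5′ to 3′ on the strand of the gene, in lower case. Capitals mark every match, on either strand, to 5 short motifs. These were the first part of the cAMP response element, with the letters TGACG, and the GC box known to be bound by Sp1, with the letters GGGCGG. The core of the hypoxia response element has the letters ACGTG, the usual form of the TATA box has the letters TATAAA, and the CCAAT box has the letters of its name.
Pgk1, chrX:106186850-106187099, plus strand: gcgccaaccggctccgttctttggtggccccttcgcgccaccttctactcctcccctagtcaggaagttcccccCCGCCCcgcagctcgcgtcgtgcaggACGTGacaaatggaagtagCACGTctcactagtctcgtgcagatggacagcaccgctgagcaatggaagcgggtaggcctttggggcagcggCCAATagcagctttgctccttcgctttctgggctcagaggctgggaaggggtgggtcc
Pgk2, chr17:40208610-40208859, minus strand: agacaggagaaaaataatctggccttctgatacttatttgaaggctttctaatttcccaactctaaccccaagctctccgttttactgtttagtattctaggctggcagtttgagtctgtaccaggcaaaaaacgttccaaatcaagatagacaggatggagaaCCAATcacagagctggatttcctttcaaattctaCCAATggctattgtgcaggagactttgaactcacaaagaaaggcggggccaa
Ldhc, chr7:46861013-46861262, plus strand: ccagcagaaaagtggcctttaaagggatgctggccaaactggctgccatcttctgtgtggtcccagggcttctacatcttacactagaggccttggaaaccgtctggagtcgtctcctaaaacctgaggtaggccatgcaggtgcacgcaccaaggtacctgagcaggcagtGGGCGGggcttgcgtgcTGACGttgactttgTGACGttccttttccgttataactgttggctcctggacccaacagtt
Gapdhs, chr7:30743682-30743931, minus strand: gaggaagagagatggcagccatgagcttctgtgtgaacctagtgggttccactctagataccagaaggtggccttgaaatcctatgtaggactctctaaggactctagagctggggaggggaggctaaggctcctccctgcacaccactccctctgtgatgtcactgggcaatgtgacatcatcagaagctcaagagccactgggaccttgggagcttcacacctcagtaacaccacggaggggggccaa
The 2 PGK promoters differed in base composition, with 62.8% G and C for Pgk1 and 42% for Pgk2. Pgk1 held 1 GC box, 2 ACGTG matches and 1 CCAAT, whereas Pgk2 held 2 CCAAT and no other of the motifs. Ldhc held 2 TGACG matches, at -61 and -47 from the start, and 1 GC box, and Gapdhs held none of the 5 motifs. Ldhc and Gapdhs each have a second start in the RefSeq table, not shown, whose window held none of the 5 either. Among 32851 RefSeq promoters cut to the same length, 17.8% held TGACG, 32.7% GGGCGG, 16.6% ACGTG, 12.4% TATAAA and 33.8% CCAAT. These matches describe the sequence and are no evidence of a bound factor.

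Over the whole course, the 10 genes fell into levels of very different height. In germ-like pools Aldoa, Gapdh and Ldhb were the highest 3 from E11.5 to E14.5, and Ldhc, Ldha and Pgk2 were the highest 3 in every PND30 and PND35 pool. The plot of all 10 genes by time-point shows these courses with every pool. Because most groups held only 2 pools, neighbouring levels often could not be separated. With the 31 groups of each gene set in order of their mean, the ranges of neighbours with 2 or more pools overlapped in 15 of 21 pairs for Pgk1, 17 of 21 for Pgk2, 18 of 21 for Ldha, 17 of 22 for Ldhb and 16 of 21 for Ldhc. The counts were 18 of 21 for Gapdh, 18 of 20 for Gapdhs, 18 of 20 for Hk1, 17 of 21 for Hk2 and 19 of 22 for Aldoa. Most neighbours in these orders thus did not differ beyond their spread.

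**Figure D1:**
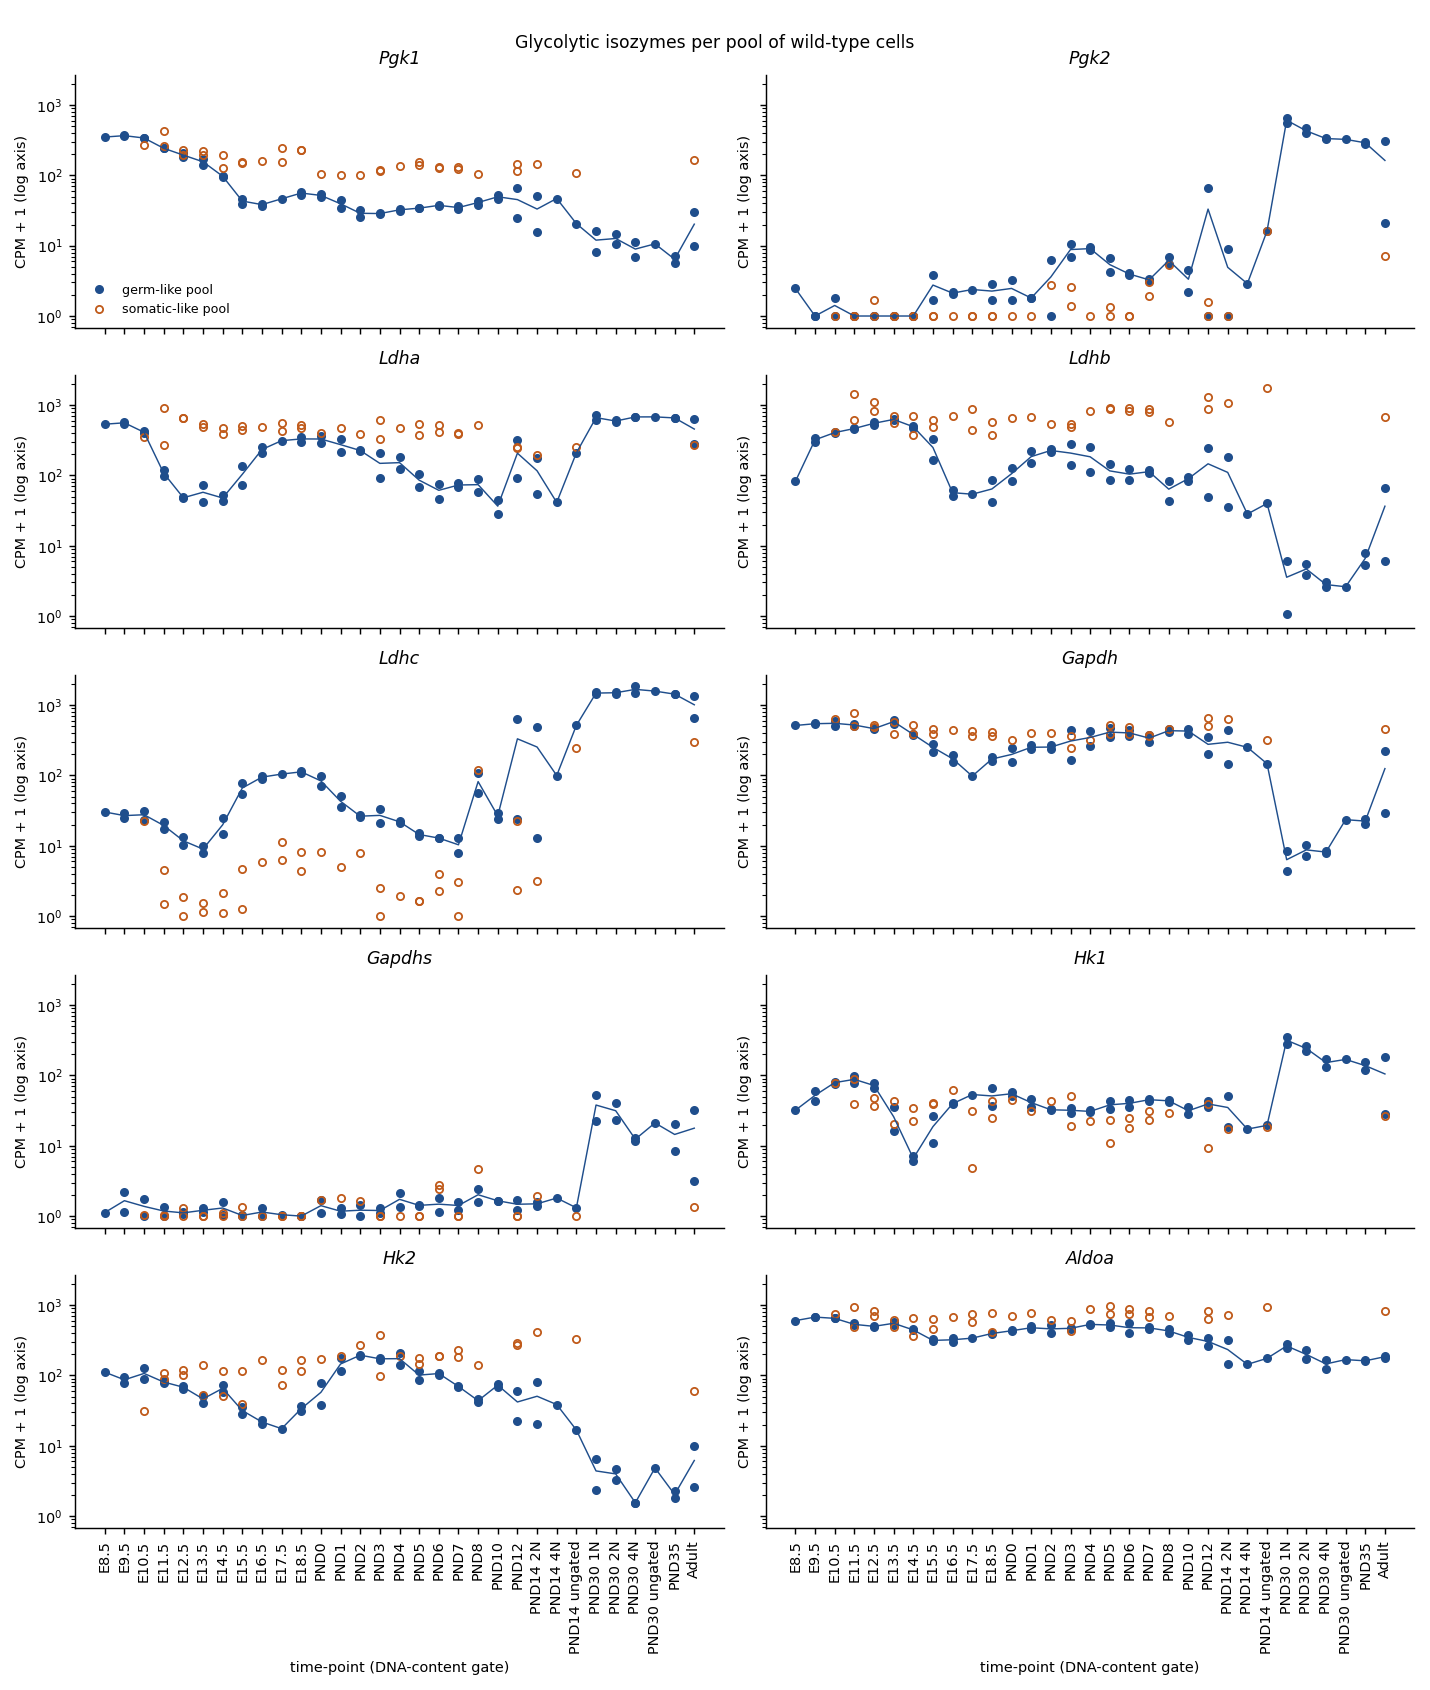
CPM plus 1 on a log axis (y) against time-point and DNA-content gate (x) for the 10 genes, with 1 point for each germ-like pool (filled) or somatic-like pool (open) and a line through the mean of the germ-like pools. Pgk2, Gapdhs and Ldhc reached their highest levels in the PND30 gates, where Pgk1, Ldhb, Gapdh and Hk2 were near their lowest. The open point of E10.5 is a pool with PGC markers near the germ-like level.

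Pgk1 held its highest group mean at E9.5, 366 ± 11.8 CPM (SD, n = 2), and Pgk2 was at 0 UMIs in all 10 germ-like pools of E9.5 and of E11.5 to E14.5. The level of Pgk1 was 242 ± 1.63 CPM at E11.5, 193 ± 20.01 at E12.5, 155 ± 19.6 at E13.5, 96.3 ± 1.36 at E14.5 and 42.1 ± 5.02 at E15.5, each with n = 2 and with no overlap between neighbours from E10.5 to E15.5. It then stayed between 23.9 and 64.6 CPM in every germ-like pool of E15.5 to PND12. Part of the early cells, some of E10.5 among them, had no sex label, and the part of sex in this X-linked gene was not tested. Pgk2 was at low level before meiosis. It was at 1.46 CPM (48 UMIs) in the pool of E8.5 and at 0.825 CPM (25 UMIs) in replicate 2 of E10.5, with 0 UMIs in replicate 1. It was at 0.694 to 2.80 CPM in the 9 germ-like pools of E15.5 to PND0, at 9.62 and 6.00 CPM in the pools of PND3 and at 8.62 and 7.56 CPM in those of PND4, and at 2.12 to 5.60 CPM in the 6 pools of PND5 to PND7. At PND12 and PND14 the 2 replicates stood apart in most of the genes, and they also held cells of different clusters. At PND12, 69 of 73 cells of replicate 1 but 53 of 186 cells of replicate 2 were spermatogonia-like. In the 2N pools of PND14 this was so for 208 of 212 and for 2 of 94 cells. Replicate 1 of PND12 held no Pgk2 UMI, while replicate 2 held 64.3 CPM, and at PND14 the 2N pools of replicates 1 and 2 held 0 and 7.85 CPM. The adult replicates differed as well, with Pgk2 at 20.1 CPM in replicate 1 and 304 CPM in replicate 2. In adult replicate 1, 313 of its 326 germ-like cells formed a cluster of their own.

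The lactate dehydrogenases changed places several times. Ldha encodes the subunit of muscle and of proliferating cells, Ldhb that of heart, and Ldhc that of meiotic germ cells and sperm. At E8.5 the single germ-like pool held 534 CPM of Ldha and 81.1 of Ldhb. At E10.5 the pools held 423 and 396 CPM of Ldha beside 408 and 403 of Ldhb, and at E12.5 they held 46.1 and 48.04 of Ldha beside 575 and 526 of Ldhb. Ldha thus made up 86.8% of the UMIs of the Ldha and Ldhb pair at E8.5, 50.3% ± 0.990 (SD, n = 2) at E10.5 and 7.90% ± 0.660 (n = 2) at E12.5. The order turned again between E15.5 and E16.5. Ldha was 31.3% ± 19.1 of the pair at E15.5, 80.7% ± 0.283 at E16.5, 49.98% ± 0.0919 at PND2 and 28.4% ± 8.92 at PND10, each with n = 2. At E15.5 the 2 replicates differed, with 133.1 and 72.3 CPM of Ldha and 164 and 333 CPM of Ldhb, and with 66 of 96 cells of replicate 1 in the prospermatogonia-like cluster 10 while 78 of 92 cells of replicate 2 were in the PGC-like cluster 9. In the cells of replicate 1, cluster 9 held 387 CPM of Ldhb and 82.1 of Ldha, and cluster 10 held 84.5 and 155, so the 2 genes differed between clusters within the same replicate.

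**Figure D2:**
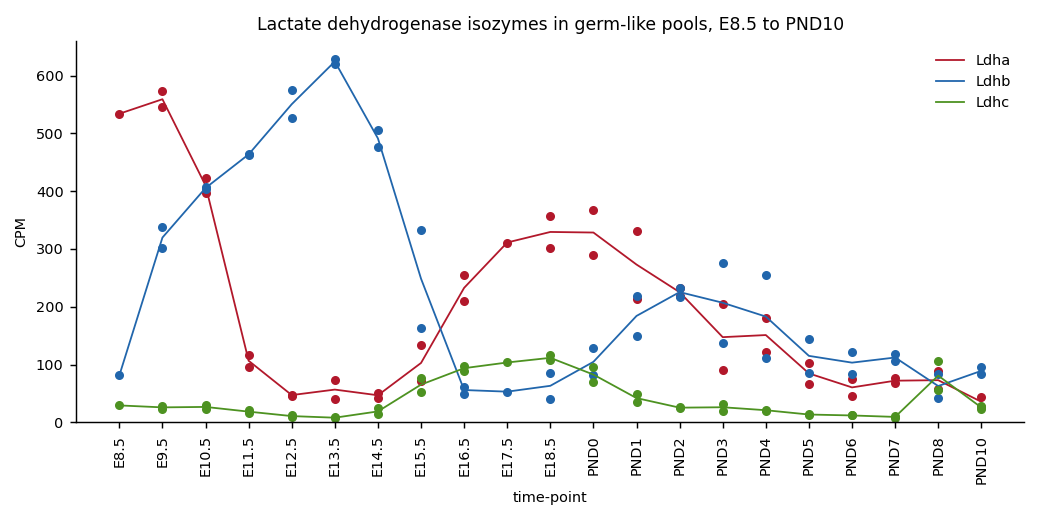
CPM (y) of Ldha, Ldhb and Ldhc in each germ-like pool from E8.5 to PND10 (x), with lines through the means. Ldhb lies above Ldha from E11.5 to E15.5, Ldha lies above Ldhb from E16.5 to PND1, by their means, and Ldhc lies above Ldhb in the 5 pools of E16.5 to E18.5.

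Germ-like pools of E15.5 and E16.5 (n = 4) were first compared with those of E11.5 and E12.5 (n = 4). Male PGCs stop dividing between these ages, and the comparison is called the arrest below. In the E16.5 pools 95 of 98 and 92 of 95 cells were prospermatogonia-like. The E15.5 pools held 66 of 96 and 14 of 92 such cells. The later pools thus also differed from the earlier ones in the clusters they held, and the 2 differences cannot be told apart here. Of the 10 genes, 1 rose and 6 fell (edgeR quasi-likelihood test, Benjamini-Hochberg adjusted over 27648 genes, called under 0.05), where 18.2% of all genes tested rose, 17% fell and 35.2% were called in either direction. The median log2 fold change was -1.84 for the members without Pgk2 and Gapdhs, which were too low for a fold. It was 0.72 for all genes tested, low ones included. Fold changes here are scaled by TMM, a normalization on the bulk of the genes, which differed between the 2 groups by 0.45 on the log2 scale, so they are lower than ratios of CPM. Pgk1 held 38.6, 45.7, 38.6 and 36.2 CPM in the later pools and 243, 241, 179 and 207 in the earlier ones. The groups did not overlap, as was so for 37.3% of all genes tested, and the log2 fold change was -2.90 ± 0.27 (SE; adjusted p = 2.17e-10). Ldhb held 164, 333, 61.9 and 49.8 CPM in the later pools against 463, 464, 575 and 526, which gave a change of -2.53 ± 0.47 (adjusted p = 5.04e-05) with the later pools below every earlier one.

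The other 4 genes that fell at the arrest were Gapdh, both hexokinases and Aldoa. Their log2 fold changes were -1.69 ± 0.34 for Gapdh (adjusted p = 0.000158), -2.03 ± 0.38 for Hk1 (4.58e-05), -1.99 ± 0.34 for Hk2 (1.26e-05) and -1.15 ± 0.16 for Aldoa (5.69e-07). In none of them did the 4 later pools overlap the 4 earlier ones, with for example 298 to 344 CPM of Aldoa against 495 to 550. Ldhc was the gene that rose. It held 77.3, 53.1, 89.4 and 97.9 CPM in the later pools and 20.5, 16.4, 9.13 and 12.4 in the earlier ones, without overlap, and a change of 2.01 ± 0.72 (adjusted p = 0.0265). Ldha, with 133.1, 72.3, 255 and 210 CPM against 95.9, 117.1, 46.1 and 48.04, overlapped and was not called (0.66 ± 0.35, adjusted p = 0.154). Pgk2 and Gapdhs stayed under 3 CPM in all 8 pools, and no fold is given for them. Sertoli markers moved with these groups, with a summed level of 8 markers of 30.3 to 289 CPM in the later pools and 19.8 to 31.1 in the earlier ones, and none of the 8 was at 0 throughout. These Sertoli ranges overlapped, whereas several other marker sums did not overlap between the groups. Sums of 11 spermatogonia markers were 3271 to 4060 CPM against 541.5 to 1287, and of 7 spermatocyte markers 1052 to 1221 against 130.8 to 271.6. Those of 6 visceral endoderm markers were 168.5 to 464 CPM against 3.75 to 11.98, of 5 mesoderm markers 16.9 to 85.6 against 0.686 to 2.07, of 5 endothelium markers 53.4 to 221 against 38.6 to 47.8 and of 6 spermatid markers 26.99 to 63.4 against 3.07 to 7.62. The endothelium markers include Tie1, which the study describes as mainly expressed in quiescent prospermatogonia. Tie1 was also a leading gene of the prospermatogonia-like cluster 10, so this sum does not mark endothelium alone. The part of all these markers in the result was not tested.

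Hk1 and Hk2 did not keep the same course before and after the arrest. The level of Hk1 was 5.16 and 6.10 CPM at E14.5, its lowest of the 31 groups, between 65.02 and 77.1 CPM at E12.5 and 37.7 and 39.7 at E16.5. Hk2, the form that is raised in many dividing cells, made up 91.96% ± 0.354 of the UMIs of both at E14.5, 34.98% ± 0.926 at E16.5 and 85.99% ± 0.580 at PND2, each with n = 2. Among the other genes of the pathway, 4 of 18 other glycolytic enzymes rose and 3 fell, and 5 of 7 genes of pyruvate dehydrogenase and its kinases fell and 1 rose. Of 9 transporters of glucose and lactate, 2 rose and 5 fell, of 6 regulators 4 fell, and of 5 other testis-expressed isozymes 4 were tested and 1 rose. Of the genes of these lists with the largest called changes, those named here held 5 or fewer UMIs in the earlier pools, so only levels are given. In the later pools Slc16a7, a monocarboxylate transporter, held 3.92 to 9.19 CPM, Hkdc1 0.167 to 7.72 and the neuronal enolase Eno2 0.834 to 2.64.

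**Figure D3:**
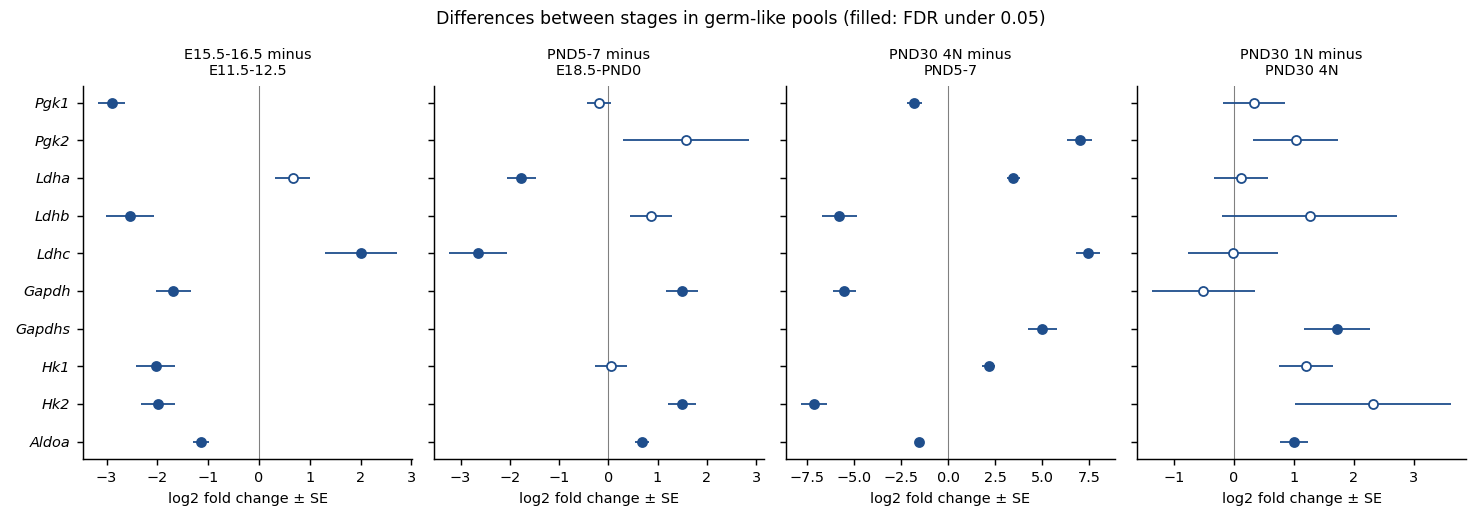
Log2 fold change ± SE (x, TMM-scaled) of each gene (y) for 4 comparisons of germ-like pools, filled where the adjusted p was under 0.05. Genes at low level in both groups have no point. The third panel, PND30 4N against PND5 to PND7, has all 10 genes filled, 5 on either side of 0.

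The next comparison set spermatogonia-like pools of PND5 to PND7 (n = 6) against prospermatogonia-like pools of E18.5 and PND0 (n = 4), before and after germ cells resume division around birth. Here 3 of the 10 genes rose and 2 fell, beside 19.9% and 30% of all genes tested and 49.9% in either direction. The median change was 0.68 for the members without Gapdhs, which was too low for a fold, and -0.66 for all genes. TMM differed by -0.43, so that fold changes are above ratios of CPM. Ldhc held 6.92, 11.9 and 14.3 CPM (lowest, median and highest) at PND5 to PND7 against 115.7, 107.4, 69.04 and 96.2 before, and fell by 2.64 on the log2 scale (SE 0.59, adjusted p = 0.000288). Ldha held 45.3, 71.6 and 102.5 CPM against 356, 302, 289 and 367, a change of -1.76 ± 0.30 (adjusted p = 7.35e-06). Neither gene overlapped between the groups, as was so for 44.9% of all genes tested. Pgk2 did not pass the test (1.58 ± 1.27, adjusted p = 0.331).

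Gapdh and Hk2 rose in the same comparison. Gapdh held 301, 368 and 474 CPM against 157, 183, 243 and 152, with no overlap, and its change was 1.49 ± 0.32 (adjusted p = 0.000188). Hk2 held 66.8, 94.4 and 114.1 CPM against 35.3, 30.2, 76.6 and 36.7, where replicate 1 of PND0 reached into the range of the later pools, and its change was 1.502 ± 0.29 (adjusted p = 4.56e-05). The rise of Aldoa, 0.68 ± 0.15 (adjusted p = 0.000204), depended on the scaling. With the median-ratio factors of DESeq2 it was 0.29 and not called (adjusted p = 0.129). Pgk1, Ldhb, Hk1, Pgk2 and Gapdhs did not pass the test, although Pgk1 held 32.5 to 37.4 CPM against 49.02 to 57.9 without overlap and was called under the other scaling (-0.59, adjusted p = 0.0405). Of the other lists, 9 of 18 glycolytic enzymes fell and 3 rose, and 4 of 7 pyruvate dehydrogenase genes rose and 1 fell. The hexokinase domain gene Hkdc1 fell by 6.41 ± 0.62 on the log2 scale, from a median of 12.6 CPM to at most 0.512. The pyruvate dehydrogenase kinase Pdk4 fell by 5.37 ± 0.93 and Slc16a7 by 4.95 ± 1.25. Sums of 8 blood markers were 18.3 to 98.9 CPM at PND5 to PND7 against 244.0 to 541.5 before, of 5 endothelium markers 90.1 to 107.3 against 234.6 to 356 and of 6 spermatid markers 25.1 to 33.4 against 99.7 to 131.4. The endothelium sum again includes Tie1, a gene of quiescent prospermatogonia in the study, and does not mark endothelium alone. The part of the 3 sums in these changes was not tested.

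All 10 genes changed between spermatogonia-like pools of PND5 to PND7 (n = 6) and germ-like cells sorted as 4N at PND30 (n = 2), the gate that holds meiotic spermatocytes. They split evenly, with 5 higher and 5 lower. When the 4N cells were kept to cluster 4, Gapdhs lost its call, as given below. In this comparison 30.5% of all genes tested rose, 27.8% fell and 58.3% were called, so a call by itself was common. The median change was 0.31 for the 10 genes and 0.00 for all genes, and TMM differed by -0.23. The values are given by enzyme step.

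Pgk2 held 326 and 339 CPM in the 2 pools of 4N cells and 2.12, 2.95 and 5.60 CPM (lowest, median and highest) at PND5 to PND7, and its log2 fold change was 6.99 ± 0.67 (adjusted p = 2.13e-10). Pgk1 held 10.1 and 5.80 CPM against 32.5, 34.3 and 37.4, a change of -1.78 ± 0.38 (adjusted p = 0.000115). The pair thus moved in opposite directions, and Pgk2 made up 97.7% ± 0.940 (SD, n = 2) of its UMIs in 4N cells, against 6.30% ± 0.885 (n = 2) at PND7. The X-linked Pgk1 was still at a level above 0, with 957 UMIs in the 2 pools together. Part of these came from 4N cells outside cluster 4, since the 4N cells of cluster 4 alone held 5.87 and 3.44 CPM.

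Ldhc was the highest of the 10 genes in 4N cells, with 1484 and 1864 CPM, against 6.92, 11.9 and 14.3 at PND5 to PND7. Its change was 7.42 ± 0.65 (adjusted p = 1.63e-11). Ldha, its neighbour on chromosome 7, rose with it, from 45.3, 71.6 and 102.5 CPM to 670 and 686 (3.46 ± 0.34, adjusted p = 1.73e-10). Ldhb moved the other way, from 83.95, 112.1 and 144.9 CPM to 1.602 and 2.002 (-5.77 ± 0.93, adjusted p = 2.12e-06), with 183 UMIs left in the 2 pools. The 3 lactate dehydrogenases therefore did not split into a somatic and a testis side, since Ldha ended beside Ldhc.

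Gapdh held 7.32 and 6.94 CPM in 4N cells against 301, 368 and 474 before (-5.50 ± 0.59, adjusted p = 1.05e-09). The sperm form Gapdhs held 11.9 and 10.9 CPM against 0.143, 0.420 and 0.815 (5.01 ± 0.76, adjusted p = 1.69e-07). Hk2 was nearly absent, with 0.551 and 0.552 CPM and 59 UMIs, against 66.8, 94.4 and 114.1 (-7.11 ± 0.71, adjusted p = 1.90e-10), whereas Hk1, whose gene also gives rise to a form bound to the sperm flagellum, held 171 and 132.5 CPM against 32.3, 42.4 and 45.8 (2.15 ± 0.35, adjusted p = 2.28e-06). Aldoa fell from 402, 491 and 552 CPM to 167 and 123.4 (-1.53 ± 0.20, adjusted p = 6.16e-08). None of the 10 overlapped between the groups, as was so for 65.5% of all genes tested. A sum of 8 Sertoli markers was 6.94 and 7.51 CPM in the 4N pools and 72.4 to 382 at PND5 to PND7, and its part in the fall of the somatic forms was not tested.

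In the lists, 4 of 5 other testis-expressed isozymes were tested and all 4 rose. Aldoart2, a testis aldolase copied from Aldoa, held 92.4 and 40.95 CPM in the 4N pools against a median of 0.0914 before (10.66 ± 0.88), and Pgam2, the muscle phosphoglycerate mutase, held 568 and 643 CPM against 0.973 (9.51 ± 0.87). Slc16a7 held a median of 158.8 CPM against 0.287 (9.90 ± 0.81), and the pyruvate dehydrogenase kinase Pdk1 fell from 153 CPM to at most 0.276 (-9.24 ± 0.97). Of 18 other glycolytic enzymes 6 rose and 7 fell, of 7 pyruvate dehydrogenase genes 2 rose and 3 fell, of 6 regulators 3 rose and 3 fell, and of 9 transporters 6 rose and 3 fell. The glycolytic pathway did not move as a block in either direction.

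The clusters, which were made without these genes, ordered the testis forms within the postnatal germ-like cells. The plot by cluster starts with the spermatogonia-like clusters 12 and 14 and with cluster 11 (spermatogonia-like to early spermatocyte-like). Cluster 18 comes next, a single point of 313 spermatocyte-like cells of adult replicate 1, at 661 CPM of Ldhc and 12.01 of Pgk2. Cluster 4 (spermatocyte-like and early spermatid-like) and the spermatid-like clusters 16 and 17 follow. In replicate 2 of PND12, Ldhc held 43.3 CPM in cluster 14, 836 in cluster 11 and 735 in cluster 4, while Pgk2 held 1.18, 48.3 and 121.5 CPM in the same clusters. Cluster 11 varied between pools, from 44.1 CPM of Ldhc and 0.373 of Pgk2 in PND10 replicate 2 to these values, so the order rests on that replicate. In cluster 4 of the PND30 gates, Pgk2 ranged from 249 to 539 CPM and Ldhc from 1585 to 1915. Gapdhs held 1.46 and 1.39 CPM in cluster 4 of the 4N pools, 16.2 to 51.6 in cluster 16 of PND30 and 80.2 to 105.7 in cluster 17. The 4N pools as a whole held 11.9 and 10.9 CPM of Gapdhs and also held other cells, among them 32 cells of cluster 16 in replicate 1 at 37.2 CPM.

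**Figure D4:**
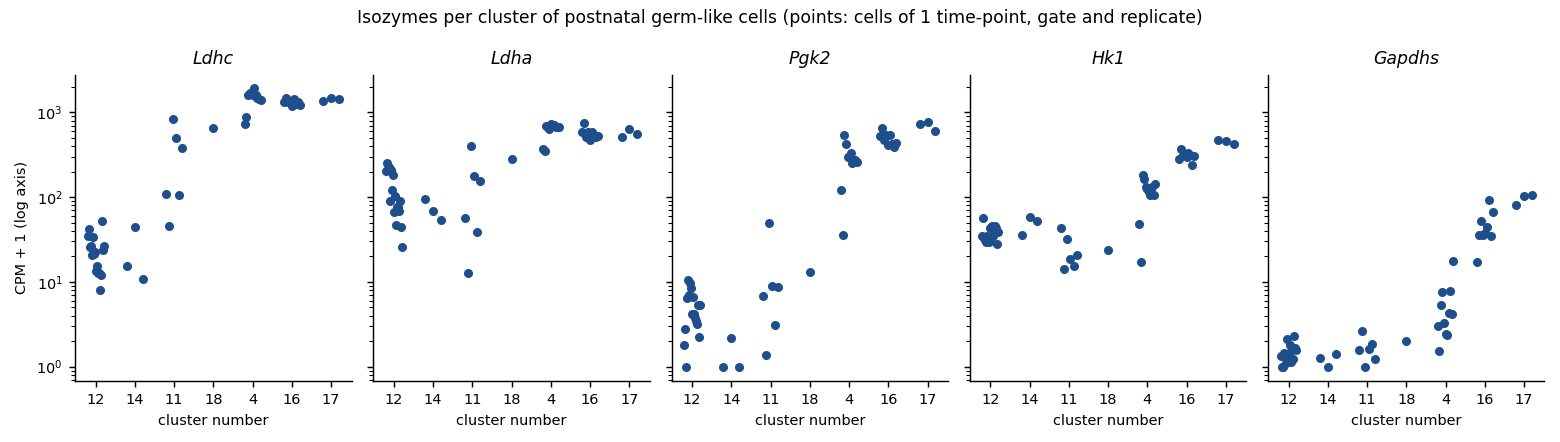
CPM plus 1 on a log axis (y) of 5 genes in each cluster of postnatal germ-like cells (x), with 1 point for the cells of each time-point, gate and replicate. In cluster 4, Ldhc and Ldha are near their top level in the points of PND30 and later, and lower in those of PND12 and PND14. Hk1 is higher in clusters 16 and 17 than in cluster 4, and so is Gapdhs in most points.

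The last comparison of germ cells set the cells sorted as 1N at PND30 (n = 2), the gate of haploid spermatids, against those sorted as 4N (n = 2). Of the 10 genes 2 rose and none fell, beside 8.96% of all genes tested that rose, 8.26% that fell and 17.2% called in either direction. The median change was 1.02 for the 10 genes and 0.00 for all genes, with a difference in TMM of -0.16. Gapdhs held 21.6 and 52.4 CPM in 1N cells against 11.9 and 10.9 in 4N cells, a change of 1.72 ± 0.55 (adjusted p = 0.0243). Aldoa held 246 and 278 CPM against 167 and 123.4, a change of 1.00 ± 0.23 (adjusted p = 0.00215). Neither overlapped between the gates, as was so for 56.9% of all genes tested, and both calls rested on few pools. Without replicate 2 of the 1N cells the change of Gapdhs was 0.99 (adjusted p = 0.379) and that of Aldoa 0.84 (adjusted p = 0.111), and without replicate 2 of the 4N cells they were 1.72 (adjusted p = 0.0936) and 0.86 (adjusted p = 0.129). Without replicate 1 of the 4N cells Gapdhs was at 1.81 (adjusted p = 0.127).

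The 1N gate also held cells of cluster 4, named spermatocyte-like and early spermatid-like, with 62 of the 192 cells of replicate 1. The comparison was therefore also made with the 4N cells of cluster 4 and the 1N cells of clusters 16 and 17 only. This choice was made after the values were seen. The clusters were drawn from the same expression data, and 1N cells that may be early spermatids were dropped. Cells chosen so favour a larger difference in spermatid genes, and the p-values are no further evidence for them. Gapdhs then held 28.96 and 62.2 CPM against 1.46 and 1.39, and its change was 4.91 (adjusted p = 9.98e-07). Hk1 held 317 and 407 CPM against 125.2 and 113.9, and passed the test at 1.61 (adjusted p = 0.00508), whereas in the whole gates it held 277 and 356 CPM against 171 and 132.5 and did not pass (1.21 ± 0.45, adjusted p = 0.0602). With the same cells, the difference of Gapdhs between 4N cells and PND5 to PND7 was 2.15 and no longer called (adjusted p = 0.176), while the other 9 genes of that comparison kept their calls and directions.

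Pgk2 held 560 and 654 CPM in 1N cells against 326 and 339 in 4N cells, without overlap, but did not pass the test (1.03 ± 0.71, adjusted p = 0.401). Ldhc held 1428 and 1536 CPM against 1484 and 1864, and Ldha 606 and 719 against 670 and 686, so both overlapped. Pgk1, Ldhb, Gapdh and Hk2 were all at 15 CPM or less in both gates. A sum of 6 spermatid markers was 3874 and 6275 CPM in the 1N pools and 810 and 976 in the 4N pools. In the lists, 3 of 18 other glycolytic enzymes and 2 of 4 testis-expressed isozymes tested rose, and none of either fell. Aldoart2 held 281 and 338 CPM against 92.4 and 40.95 (2.33 ± 0.51, adjusted p = 0.00106) and Aldoart1 a median of 136.5 CPM against 34.96 (2.06 ± 0.45, adjusted p = 0.00103). The glucose phosphate isomerase gene Gpi1 rose by 1.96 ± 0.30 on the log2 scale.

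Germ-like cells were then set against the somatic-like cells of the same ages, first from E11.5 to E18.5 with 15 pools of each and time-point as a covariate. Among 9 genes tested, 1 was higher and 6 were lower in germ-like cells, beside 32.4% and 22.8% of all genes tested and 55.1% in either direction. The median difference was -0.84 for the members without Pgk2 and Gapdhs and 0.41 for all genes. Ldhc held 6.96, 24.04 and 115.7 CPM (lowest, median and highest) in germ-like pools and 0, 1.15 and 10.1 in somatic-like ones, a difference of 3.97 ± 0.26 (adjusted p = 7.01e-17). Ldha held 40.8, 95.9 and 356 CPM against 268, 487 and 900 (-2.25 ± 0.20, adjusted p = 4.27e-11). The ranges of both genes overlapped over the whole period. For Ldha the lowest somatic-like value was that of E11.5 replicate 1, and the next was 382 CPM in E14.5 replicate 2, above every germ-like pool.

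The other genes lower in fetal germ-like cells were Ldhb (-1.38 ± 0.35, adjusted p = 0.0012), Hk2 (-1.22 ± 0.27, 0.000241), Pgk1 (-1.09 ± 0.24, 0.000211), Gapdh (-0.58 ± 0.21, 0.0224) and Aldoa (-0.54 ± 0.17, 0.0074). Of these, Ldhb and Gapdh were not called without the replicate 1 pools (adjusted p = 0.0512 and 0.121), and Gapdh and Aldoa were not called without the replicate 2 pools (0.0674 and 0.0678). Hk1 did not pass (-0.19 ± 0.25, adjusted p = 0.525), nor did Pgk2 (adjusted p = 0.0692), with 0 to 2.80 CPM in germ-like and 0 to 0.683 in somatic-like pools. Gapdhs, at 0 to 0.574 and 0 to 0.357 CPM, was too low to be tested. The monocarboxylate transporter Slc16a3, which exports lactate, held 1.502, 5.004 and 13.8 CPM in germ-like pools against 20.6, 96.4 and 142.9 in somatic-like ones (-3.95 ± 0.26), without overlap, as was so for 2.58% of all genes tested. Pdha2, the testis form of a pyruvate dehydrogenase subunit, was higher by 4.87 ± 0.55, Eno4 by 3.07 ± 0.49 and Tigar by 2.78 ± 0.30. A sum of 8 Sertoli markers was 19.8 to 315 CPM in germ-like and 329 to 3391 CPM in somatic-like pools, and a sum of 9 PGC markers 1847 to 4228 and 77.5 to 1691 CPM. The 1691 CPM were those of somatic-like E11.5 replicate 1, and the next highest somatic-like pool held 351 CPM (E17.5 replicate 1). In that E11.5 pool, 30 of 60 cells came from the reporter-positive gate named BV. The part of this pool in the differences was not tested.

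After birth, from PND0 to PND8, 18 germ-like and 13 somatic-like pools were compared. Of the 10 genes 2 were higher and 6 lower in germ-like cells, beside 29.4% and 25.2% of all genes tested and 54.6% in either direction. The median was -0.91 for the members without Gapdhs and 0.44 for all genes. Pgk1 held 24.8, 33.4 and 52.8 CPM in germ-like pools against 99.4, 120.6 and 156 (-2.08 ± 0.09, adjusted p = 1.2e-18). Ldhb held 42.7, 125.2 and 276 CPM against 484, 796 and 908 (-2.74 ± 0.17, adjusted p = 1.08e-14). These 2 genes did not overlap, as was so for 10.4% of all genes tested. Ldha (-2.19 ± 0.19), Hk2 (-1.14 ± 0.17), Aldoa (-0.91 ± 0.09) and Gapdh (-0.53 ± 0.14, adjusted p = 0.00181) were lower as well, with overlap. Hk1 held 28.3, 37.8 and 57.3 CPM against 10.1, 23.9 and 50.1 and did not pass (0.08 ± 0.15, adjusted p = 0.656), and nor did Gapdhs, at 0 to 1.46 against 0 to 3.75 CPM (adjusted p = 0.216).

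The 2 testis forms that were higher in postnatal germ-like cells depended on the replicate. Ldhc held 6.92, 23.1 and 106.4 CPM against 0, 1.48 and 117.7 (1.61 ± 0.31, adjusted p = 2.65e-05), and Pgk2 0, 3.15 and 9.62 against 0, 0.326 and 4.28 (1.91 ± 0.60, adjusted p = 0.00695). Without the replicate 2 pools, the differences were 0.90 for Ldhc (adjusted p = 0.146) and 0.64 for Pgk2 (adjusted p = 0.496). Without the replicate 1 pools they were 3.23 and 2.78. The germ-like pool with the most Ldhc was PND8 replicate 2. There 166 of 180 cells were spermatogonia-like to early spermatocyte-like, against 6 of 167 in replicate 1, so replicate and stage cannot be told apart at PND8. The top somatic-like value of both was that of PND8 replicate 1, a pool of 17 cells. Its sum of 6 spermatid markers was 164 CPM, against at most 29.3 in the other somatic-like pools of PND0 to PND8. Germ-like PND8 replicate 2 held 128.6 CPM of these markers and replicate 1 held 42.3. The part of this in Ldhc and Pgk2 was not tested. In the lists, Slc16a3 was lower by -3.90 ± 0.17 and the liver-type phosphofructokinase Pfkl by -3.24 ± 0.20, and Pdha2 was higher by 3.52 ± 0.24. In a fit of both periods together, the difference between germ-like and somatic-like cells was smaller after birth than before for Ldhc (-2.23 ± 0.46, adjusted p = 0.000311) and lower for Pgk1 (-0.81 ± 0.27, adjusted p = 0.035), where 11.9% of all genes were called. Both depended on the replicate. Without the replicate 1 pools they were -0.44 for Ldhc (adjusted p = 0.882) and -1.22 for Pgk1 (0.141), and without the replicate 2 pools -3.22 (0.0278) and -0.80 (0.366).

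**Figure D5:**
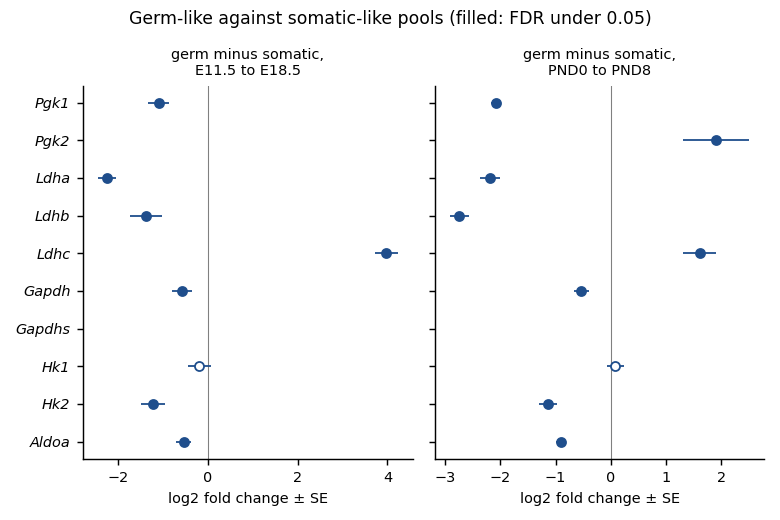
Log2 difference ± SE (x, germ-like minus somatic-like) of each gene (y) before birth (E11.5 to E18.5) and after it (PND0 to PND8), filled where the adjusted p was under 0.05. Ldhc lies to the right of 0 in both panels, and Ldha, Ldhb, Pgk1, Hk2, Aldoa and Gapdh lie to the left.

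The share of cells with an Ldhc UMI gave the same order as the level. With each cell thinned to 50000 UMIs, it was 13.1% to 39.7% in the 8 germ-like pools of E11.5 to E14.5 and 62.9% to 91.6% in the 9 pools of E15.5 to PND0. In somatic-like pools of E11.5 to E18.5 it was 0% to 29.4%, and without thinning 0% to 62.5%, at median depths of 89004 to 281370 UMIs against 227574 to 385200 in germ-like cells of the same ages. The shares of the early germ-like pools thus reached into the somatic-like range, and the later ones did not. Somatic-like cells of PND8 replicate 1 all held an Ldhc UMI, at 117.7 CPM, beside 58.8% of germ-like cells at 55.1 CPM in the same replicate. This somatic-like pool also held 164 CPM of spermatid markers, whose part in its Ldhc was not tested. The share was also high in somatic-like pools of PND12 replicate 2 (65.8%) and of ungated PND14 replicate 2 and adult replicate 1 (100% in each), while it was 0% to 25% in the other somatic-like pools of PND0 to PND8.

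The shares of the isozymes summarised the change at each step. Ldhc made up 1.16% ± 0.179 (SD, n = 2) of the UMIs of the 3 lactate dehydrogenases at E13.5, 24.7% ± 3.77 at E16.5, 4.79% ± 1.602 at PND7, 70.9% ± 2.96 in 4N and 69.1% ± 1.35 in 1N cells. Gapdhs made up 61.5% ± 0.679 of its pair in 4N cells and 87.1% ± 0.842 in 1N cells, and Hk2 0.369% ± 0.0657 of the hexokinase pair in 4N cells. Pgk2 reached 98.3% ± 0.693 of its pair in 1N cells. In the 4N cells of cluster 4 alone, however, Gapdhs made up 15.4% and 15.8% of its pair, from 85 and 36 UMIs.

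Over the 31 groups of germ-like pools, the genes with a course most like that of a member were found by Pearson's r of log2 group means among 16861 genes, as a description with no test. For Pgk2 they were 4933406K04Rik (0.975), Lrrc10b (0.974) and Lkaaear1 (0.974), for Ldhc Adam5 (0.981), Ms4a13 (0.981) and Fank1 (0.980), and for Gapdhs 4930465I24Rik (0.991), 4930538L07Rik (0.989) and Gm26662 (0.989). For Hk2 they were Tpm3 (0.976), Tpm3-rs7 (0.975) and Igf2bp1 (0.964), and for Pgk1 Ebp (0.965), Ckb (0.959) and Plekhg3 (0.958). Among the members, Pgk2 and Gapdhs had an r of 0.941, Pgk2 and Ldhc 0.876, Ldhb and Gapdh 0.911, and Pgk2 and Gapdh -0.914. All groups share the same normalization and a common order in age.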

How the data were processed

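Single cells were picked or sorted, and their RNA was measured by a modified STRT-seq protocol that tags 3′ ends with UMIs. The authors removed duplicates with UMI-tools, aligned reads with STAR to mm10, assigned them with featureCounts of Subread and deposited UMI counts per gene and cell (13032 cells, 31053 genes). Base calling with CASAVA 1.8 is named in the submitters' processing notes. Time-points, replicates and gates were read from the cell names and the authors' table of cells. Helq-null cells were not used here.

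Wild-type cells with more than 2000 genes and 10000 to 1000000 UMIs were kept, the filter of the study, at a median of 284518 UMIs. Cells were clustered with scanpy 1.11.5 (Python 3.11.15; 1000 variable genes, 30 components, 20 neighbours, Leiden resolution 0.3, 20 clusters) without 142 genes, namely the members, the lists and the markers. No doublet caller was run, since cells were collected singly. Pools of at least 10 cells were tested with edgeR 4.0.16 (quasi-likelihood, TMM, filterByExpr, R 4.3.3), with Benjamini-Hochberg adjustment over all genes and a threshold of 0.05. No fold is given where both groups had a mean under 2 CPM or 1 group held 0 UMIs. Such genes were left out of the medians of the members but not of those of all genes. Alternatives were DESeq2 1.42.0, median-ratio (RLE) factors, other filters, the sorting gate as class, a replicate block and left-out pools. The test was tried on simulated counts. Pools of 1 time-point and replicate number came from the same embryos or testis, and their deviations from the group means correlated by -0.00788 to 0.166 between germ-like and somatic-like pools and, at PND30, by 0.102 between the 1N and 4N and 0.415 between the 2N and 4N gates. The members and lists were chosen with earlier results of these data known. All members were named in every comparison, and of each comparison's lists up to 4 called genes with the largest absolute log2 change. Some genes of the lists that this rule names are not reported here.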

Additional observations from a re-analysis of the deposited data

Results flagged for a closer look

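Of 37 groups of 4 to 10 pools, 4 held a pool far from the others, where chance gives about 1 in 20. In the 6 germ-like pools of PND5 to PND7, Pgk2 was highest in PND5 replicate 2 (5.60 CPM) and Ldhc lowest in PND7 replicate 1 (6.92 CPM). In the 4 pools of E18.5 and PND0, Gapdhs stood out in PND0 replicate 2 (0.722 CPM) and Hk2 in PND0 replicate 1 (76.6 CPM).

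The difference between germ-like and somatic-like cells changed from the fetal to the postnatal period by -0.81 on the log2 scale for Pgk1 and by -2.23 for Ldhc, by a test of the difference itself. Without the replicate 1 pools these were -1.22 (adjusted p = 0.141) and -0.44 (0.882), and without the replicate 2 pools -0.80 (0.366) and -3.22 (0.0278), by edgeR's quasi-likelihood test.

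Among embryos of E6.5 and E7.5, which enter no comparison, Ldhc held 74.8 CPM in replicate 2 of E6.5 and 71.4 CPM in replicate 2 of E7.5, against 4.52 to 17.2 CPM in the 5 other pools. The same pools held 2.98 and 3.04 CPM of Pgk2 and 11.3 and 20.9 CPM of the spermatid gene Prm1. Replicate 3 of E7.5 held 12.12 CPM of Prm1, with 6.23 CPM of Ldhc and no Pgk2 UMI. Their part in the level of Ldhc was not tested.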

How the results depend on the processing

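The number of members called stayed within 1.5 times that reported under every alternative run, except for 1N against 4N cells, where it was 2 and became 4 with DESeq2 and 4 with only the groups compared. With each pool left out in turn, which was added after the data were seen, the number called ranged from 6 to 8 at the arrest, was 5 throughout around birth and 10 throughout at meiosis, and ranged from 0 to 2 for 1N against 4N cells. With each replicate number left out it was 5 and 5 for fetal and 6 to 8 for postnatal germ-like against somatic-like cells, and the Pgk2 share in 4N cells ranged from 96.99% to 98.32%. For germ-like cells, leaving out a replicate number with 1 group per time-point leaves no residual degrees of freedom. With the time-points of each side merged, also added later, 6 and 9 members were called at the arrest, 6 and 7 around birth and 10 and 10 at meiosis, and Hk1 was at -0.0218 around birth without replicate 2. At the arrest Ldhb was not called without replicate 1 (-1.54, adjusted p = 0.146). The 1N and 4N cells have 1 pool each left and were not fitted, and the sorting gate gave no class for postnatal somatic-like cells.

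Signs turned only for members that were not called. Around birth, Pgk1 was at 0.0063 by the sorting gate, and Hk1 at -0.34 under RLE, -0.34 under DESeq2, -0.0942 by the gate and between -0.11 and 0.28 with pools left out. For 1N against 4N cells, Ldhc was at 0.42 under RLE, 0.42 under DESeq2, 0.0137 with the replicate block and between -0.16 and 0.21 with pools left out, and Gapdh at 0.21 under DESeq2 and between -1.01 and 0.29. Pgk1 ranged from -0.19 to 1.07, Ldha from -0.0905 to 0.33 and Ldhb from -4.55 to 1.65 with pools left out, and Ldha was at -0.18 with cells kept to their clusters. The cause was not tested. At the arrest, Ldha passed under RLE (1.01), DESeq2 (1.01), the gate (0.87) and only the groups compared (0.79), and Ldhc lost its call without E15.5 replicate 1 (adjusted p = 0.0694) or E16.5 replicate 2 (adjusted p = 0.0506). RLE moved all log2 changes against TMM by 0.34 at the arrest, -0.35 around birth, 0.34 at meiosis and 0.33 for 1N against 4N cells.

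The replicate block left 7, 5, 10, 2, 7 and 8 members called, as without it, in the order of the comparisons, and changed no call of a member. In the smallest germ-like pool tested 1 UMI was worth 0.0904 CPM, which limits statements on Pgk2 and Gapdhs before meiosis.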
